A study of Mus musculus with 6 samples.

Results

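The genes described here encode the integrin chains with which hematopoietic stem cells (HSCs) are known to attach to the bone marrow (BM) niche: the beta chains Itgb1, Itgb5 and Itgb7, the alpha chains that pair with them (Itga2, Itga4, Itga5, Itga6, Itga9 and Itgav), and Vcam1, a cell surface ligand. They were chosen by name, as the integrin genes of the niche outside the beta2 and beta3 families, and make up 10 of the 19846 genes in the deposited table. RNA was measured in HSCs, sorted as CD34-/LSK cells (lineage-negative, Sca-1+, c-Kit+ and CD34-), from untreated CD74-/- mice and from untreated WT mice. All mice were C57BL/6 animals of 6 to 8 weeks. CD74 is the invariant chain of MHC class II and a surface receptor for the cytokine MIF. Each genotype had 3 libraries of 1000 sorted cells, made with SMART-Seq v4, a kit for low-input RNA that copies whole transcripts into cDNA without keeping the strand. The labels name 3 mice and 3 libraries per genotype without stating that each library is 1 mouse, so p-values measure the spread between these libraries. How the Cd74 allele was disrupted is not given in the sources used here.

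An integrin is a pair of an alpha and a beta chain, and the pair decides which ligand is bound. The alpha4-beta1 integrin (VLA-4) binds VCAM-1 and fibronectin, alpha4-beta7 binds MAdCAM-1 and VCAM-1, alpha5-beta1 binds fibronectin, alpha6-beta1 binds laminins, alpha2-beta1 binds collagens, alpha9-beta1 binds tenascin-C, osteopontin and VCAM-1, and alphaV pairs with beta1 or beta5 to bind vitronectin and other matrix proteins. In the BM these pairs are known for holding stem and progenitor cells in contact with stroma and matrix, and blocking VLA-4 is known to release progenitors into the blood.

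Each library had from 14390534 to 16198678 reads in genes, and the authors' values are reads divided by a library size factor (normalized counts), with 1 read worth 0.896 to 1.07. Cd74 itself, the targeted gene, had 45.98, 71.99 and 72.75 normalized counts in CD74-/- HSCs, against 3286.62, 2459.31 and 3107.02 in WT HSCs, in accord with the labels. All 17 genes of an HSC marker list were detected in all 6 libraries, and their summed level was 53660 to 76820 in CD74-/- HSCs and 58250 to 71400 in WT HSCs. Cd34, whose protein the sort selected against, was detected at 7097.08 to 11830.35 normalized counts in CD74-/- libraries and at 5240.49 to 6834.1 in WT libraries. RNA of other blood cells was also present: neutrophil markers summed to 38790 to 159700 in CD74-/- libraries and to 170600 to 1006000 in WT libraries, and B cell markers to 2995 to 6663 in CD74-/- libraries and to 6449 to 19160 in WT libraries. In RNA from sorted populations, fewer cells of a type and less RNA per cell cannot be told apart.

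No difference between the genotypes passed the test for any of the 10 genes. All 10 had a mean of 10 normalized counts or more, the minimum for testing, and were tested by limma on log2(normalized count + 1) with Benjamini-Hochberg adjustment over 14892 genes. The test called 0 of the 10 at an adjusted p under 0.05, where it called 0.0873% of all genes tested (13 genes, 0.0403% higher and 0.047% lower in CD74-/- HSCs). Tests on the recovered reads also called 0 of the 10, where edgeR called 0.0806%, DESeq2 0.756% and limma-voom 0.0403% of all genes. At an unadjusted p under 0.05 limma had 0 of the 10, where 7.74% of all genes had one (3.14% higher and 4.6% lower in CD74-/- HSCs). The libraries of both genotypes overlapped for all 10 genes, where 12.8% of all genes had no overlap (5.35% higher and 7.47% lower in CD74-/- HSCs). The log2 fold changes (CD74-/- over WT) were negative for 8 and positive for 2 of the 10, with a median of -0.19 beside -0.03 over all genes tested. The intervals of single genes differed widely in width, so the genes are described one by one.

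Itgb1, the common beta chain of the VLA integrins (chromosome 8, 128685654 to 128733200, plus strand, GRCm38), had 2523.96, 2086.6 and 2909.13 normalized counts in CD74-/- HSCs, against 2902.42, 2592.8 and 2388.92 in WT HSCs. The highest and the lowest library were both CD74-/- libraries, with the 3 WT libraries between them. The means were 2507 ± 412 in CD74-/- HSCs and 2628 ± 259 in WT HSCs (SD, n = 3 each), and the log2 fold change was -0.08 (SE 0.216, 95% confidence interval -0.56 to 0.40, limma, Benjamini-Hochberg adjusted p = 0.945). On the linear scale the interval ran from 0.68-fold to 1.32-fold, the narrowest of the 10. Itgb1 was also one of the steadier genes of the table, since its spread between libraries of 1 genotype lay at the 7.5th percentile of all genes tested.

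Itga4, the alpha chain of VLA-4 and of alpha4-beta7 (chromosome 2, 79255426 to 79333123, plus strand), had 1748.19, 1528.96 and 2470.55 normalized counts in CD74-/- HSCs, against 2295.61, 1995.22 and 1615.01 in WT HSCs. Again both extremes were CD74-/- libraries and the WT libraries lay between them. The log2 fold change was -0.05 (SE 0.255, interval -0.62 to 0.51, or 0.65-fold to 1.43-fold, limma, Benjamini-Hochberg adjusted p = 0.968). The exons of Itga4 overlap those of Cerkl on the opposite strand over 1124 bases, and reads there cannot be assigned by strand. Cerkl had 18.44 to 205.8 normalized counts, far below Itga4 in every library.

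Itgb7, the beta chain of the gut and lymphoid homing integrin alpha4-beta7 (chromosome 15, 102215995 to 102231944, minus strand), had 130.11, 118.63 and 309.46 normalized counts in CD74-/- HSCs, against 370.29, 220.4 and 105.96 in WT HSCs. Each genotype had 1 high library, and the groups overlapped over nearly their whole ranges. The log2 fold change was -0.28 (SE 0.56, interval -1.53 to 0.96, limma, Benjamini-Hochberg adjusted p = 0.92). Itgb7 varied by 57.5% among CD74-/- libraries and by 57.1% among WT libraries (coefficient of variation), against 16.4% and 9.84% for Itgb1.

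These 3 chains, which form the alpha4 integrins, ranked the libraries alike. Itgb1 and Itga4 had the same order of all 6 libraries, with CD74-/- replicate 3 highest and CD74-/- replicate 2 lowest, as had 0.302% of all genes tested (45 genes, these included). Itgb7 ordered 13 of 15 pairs of libraries as Itgb1 did, where 5.16% of all genes had 13 pairs or more. Its range was wider: the highest library was 3.49-fold above the lowest, against 1.39-fold for Itgb1 and 1.62-fold for Itga4. The other members had fewer of the 15 pairs in that order, with 11 for Itga2, 10 for Itga6, 9 for Itga5 and Itga9, 8 for Itgb5 and Vcam1 and 7 for Itgav. The order was noticed in these data, and the points share their libraries and size factors. The log2 ratio of Itga4 to Itgb1 within a library was -0.53, -0.45 and -0.24 in CD74-/- HSCs, against -0.34, -0.38 and -0.56 in WT HSCs, and the log2 ratio of Itga4 to Itgb7 was 3.74, 3.68 and 2.99, against 2.63, 3.17 and 3.92. The highest Itgb1 value (2909.13 normalized counts, CD74-/- replicate 3) lay close to the next (2902.42, WT replicate 1). The shared order thus rests in part on small differences, and joint control of these genes was not tested. The promoters of these 3 chains are printed because of this order, as a description only. Each is the 250 bases before the start site in RefSeq (build GRCm38.p6), which held an entry for 8 of the 10 genes.
Itga4 (chr2:79255176-79255425, plus strand): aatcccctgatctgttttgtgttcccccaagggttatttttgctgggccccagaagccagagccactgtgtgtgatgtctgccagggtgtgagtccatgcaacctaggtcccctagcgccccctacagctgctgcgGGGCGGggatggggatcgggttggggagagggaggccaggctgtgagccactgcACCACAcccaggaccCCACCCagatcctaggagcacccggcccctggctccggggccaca
Itgb1 (chr8:128685404-128685653, plus strand): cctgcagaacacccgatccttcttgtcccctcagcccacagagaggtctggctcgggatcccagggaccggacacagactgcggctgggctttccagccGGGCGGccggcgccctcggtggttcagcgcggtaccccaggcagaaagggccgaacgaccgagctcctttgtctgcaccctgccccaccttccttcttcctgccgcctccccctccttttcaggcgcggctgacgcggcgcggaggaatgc
Itgb7 (chr15:102231936-102232185, minus strand): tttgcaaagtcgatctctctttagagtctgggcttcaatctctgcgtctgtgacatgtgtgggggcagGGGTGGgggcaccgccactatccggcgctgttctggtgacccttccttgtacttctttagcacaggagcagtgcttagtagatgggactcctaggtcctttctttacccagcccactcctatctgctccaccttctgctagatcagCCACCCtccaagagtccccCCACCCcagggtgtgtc
Capitals mark matches on either strand to the GC box GGGCGG bound by Sp1 family factors, the CACCC motif CCACCC bound by KLF factors and the RUNX motif TGTGGT, none of which overlap here. The Itga4 and Itgb1 promoters share a GC box, at -114 to -109 and at -151 to -146 from the start site, and Itgb7 has none. Itga4 has the RUNX motif on the opposite strand at -60 to -55 and a CACCC motif at -45 to -40, and Itgb7 has 3 CACCC motifs, at -182 to -177 on the opposite strand, -36 to -31 and -17 to -12. The GC box was found for 4 of the 8 genes (Itga4, Itga5, Itgb1 and Itgb5) and in 32.74% of 32851 promoters. The CACCC motif was found for 3 of the 8 genes (Itga2, Itga4 and Itgb7) and in 28.08% of promoters. For the RUNX motif it was 1 of the 8 genes (Itga4) and 14.05%. The counts are by gene and the percentages by promoter, so their units differ. A match is a description of these letters and does not show that a factor was bound.

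**Figure D1:**
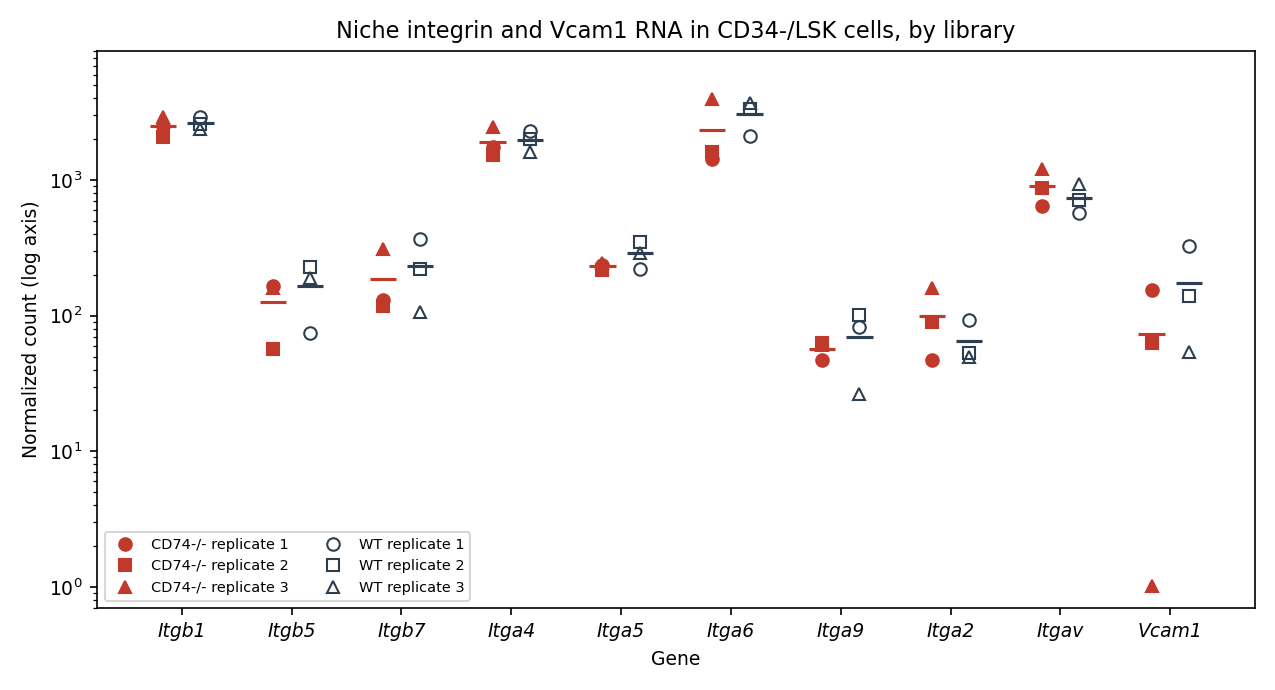
Normalized counts of the 10 genes in each library (log axis), with 3 CD74-/- libraries in filled symbols left of 3 WT libraries in open symbols and a bar at each mean. The genotypes overlap for every gene, Itgb1 and Itga4 lie in narrow bands, and the CD74-/- library with 1.02 normalized counts of Vcam1 stands far below the other 5.

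Itgb5, which pairs with alphaV (chromosome 16, 33829665 to 33949338, plus strand), had 164.35, 56.78 and 159.85 normalized counts in CD74-/- HSCs, against 74.91, 228.46 and 191.11 in WT HSCs. In each genotype 1 library was low and 2 were high, so that the groups overlapped. The log2 fold change was -0.37 (SE 0.602, interval -1.71 to 0.96, limma, Benjamini-Hochberg adjusted p = 0.892). Of its 50-base words, 7.255% also occur in transcripts of other genes, as do 7.508% of Itga4, 5.404% of Itgav and 5.307% of Itga6, and reads there may be split or lost in counting. Itgb1, Itgb7, Itga2, Itga5 and Itga9 share none.

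Itgav, the alphaV chain (chromosome 2, 83724397 to 83806916, plus strand), had 646.64, 877.02 and 1205.05 normalized counts in CD74-/- HSCs, against 576.84, 715.84 and 931.92 in WT HSCs. The highest library was CD74-/- and the lowest WT, but the ranges overlapped over most of their length. The log2 fold change was 0.28 (SE 0.313, interval -0.42 to 0.97, limma, Benjamini-Hochberg adjusted p = 0.838). Its exons overlap those of Gm13684 on the opposite strand over 634 bases, where Gm13684 had 8.96 to 76.31 normalized counts.

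Itga6, the laminin receptor chain also known as the stem cell marker CD49f (chromosome 2, 71745616 to 71858416, plus strand), had 1429.27, 1610.07 and 3967.64 normalized counts in CD74-/- HSCs, against 2131.86, 3318.5 and 3736.18 in WT HSCs. CD74-/- replicates 1 and 2 were the lowest of the 6 libraries and replicate 3 the highest, so that the CD74-/- libraries enclosed the WT range. The means were 2336 ± 1420 in CD74-/- HSCs and 3062 ± 832 in WT HSCs (SD, n = 3 each), with a log2 fold change of -0.51 (SE 0.381, interval -1.36 to 0.34, limma, Benjamini-Hochberg adjusted p = 0.745). Without CD74-/- replicate 3 it was -0.97, with an adjusted p of 0.115, the lowest that any of the 10 genes had under any alternative. Of the 17 HSC markers, 10 had the same order of the CD74-/- libraries as Itga6, 6 had another, and Cd34 had the opposite one. Among the 10, Hlf, a transcription factor of HSCs, had 4562.7, 6733.3 and 10977.62 normalized counts in CD74-/- HSCs, against 9307.64, 9392.86 and 10076.05 in WT HSCs. Mecom had 1242.42, 1814.88 and 3197.07, against 1796.89, 3323.88 and 3258.39, and Mllt3 had 2258.85, 5165.81 and 6816.31, against 4306.54, 6370.01 and 8094.9. The share of all genes with this order of the CD74-/- libraries was not counted, and the part of the HSC markers in the Itga6 values was not tested.

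Itga5, Itga2 and Itga9 complete the alpha chains that pair with beta1. Itga5, the classical fibronectin receptor chain (chromosome 15, 103344286 to 103366763, minus strand), had 235.77, 215.96 and 244.9 normalized counts in CD74-/- HSCs, against 219.39, 352.1 and 291.4 in WT HSCs. The CD74-/- libraries lay close together and 1 WT library fell among them. The log2 fold change was -0.28 (SE 0.351, interval -1.06 to 0.50, limma, Benjamini-Hochberg adjusted p = 0.851). Itga2, the collagen receptor chain CD49b (chromosome 13, 114833081 to 114932100, minus strand), had 46.96, 90.24 and 160.88 normalized counts in CD74-/- HSCs, against 93.11, 52.86 and 49.2 in WT HSCs. Its lowest and its highest library were both CD74-/-, and the log2 fold change was 0.49 (SE 0.622, interval -0.89 to 1.88, limma, Benjamini-Hochberg adjusted p = 0.853). Itga9 (chromosome 9, 118606690 to 118901003, plus strand) had 46.96, 62.86 and 60.46 normalized counts in CD74-/- HSCs, against 82.41, 100.34 and 26.49 in WT HSCs. Here it was the WT libraries that enclosed the CD74-/- range, and the log2 fold change was -0.10 (SE 0.667, interval -1.58 to 1.38, limma, Benjamini-Hochberg adjusted p = 0.978).

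Vcam1, the adhesion molecule bound by VLA-4 and known from BM stroma, endothelium and macrophages (chromosome 3, 116109949 to 116129688, minus strand), had 155.55, 62.86 and 1.02 normalized counts in CD74-/- HSCs, against 325.34, 140.66 and 53.93 in WT HSCs. These values stand for 159, 62 and 1 reads in CD74-/- libraries and for 304, 157 and 57 reads in WT libraries. The groups overlapped, since CD74-/- replicate 1 was above 2 WT libraries and CD74-/- replicate 2 above 1. The log2 fold change was -2.32 (SE 1.4, interval -5.43 to 0.78, limma, Benjamini-Hochberg adjusted p = 0.71), and a two-sided exact permutation test over the 6 libraries gave p = 0.5, where 0.1 is the smallest it can give. The size of this value rested on single libraries, since it was -0.45 without CD74-/- replicate 3, the library with 1 read, and -3.59 without CD74-/- replicate 1. Its spread between libraries of 1 genotype lay at the 96th percentile of all genes tested.

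Genes of the cells known to carry Vcam1 were set beside it in the same libraries. Markers of monocytes and macrophages (16 genes) summed to 40150, 18000 and 9827 normalized counts in CD74-/- libraries, against 51560, 30070 and 32120 in WT libraries. Lyz2, which neutrophils express as well, made up 81.5% to 89% of the sum in CD74-/- libraries and 81.6% to 84.2% in WT libraries, and without it the sums were 4431, 2582 and 1815 in CD74-/- libraries, against 9480, 5076 and 5075 in WT libraries. Both sums had the order of Vcam1 among the CD74-/- libraries, as had 5 of the 16 genes. The marker sums of B cells, dendritic cells, T and NK cells, and mast cells and basophils had it too. Those of HSCs, neutrophils, erythroid cells, megakaryocytes and platelets, and stroma and endothelium did not. The share of all genes with that order of the CD74-/- libraries was not counted. Among the WT libraries, Vcam1 was lowest in replicate 3, while the sum with Lyz2 was lowest in replicate 2. None of the 16 was called, and 6 had an unadjusted p under 0.05, all lower in CD74-/- HSCs, where 4.6% of all genes were lower by that measure. Of the 16, 14 had a negative and 2 a positive log2 fold change. The groups did not overlap for 4 lower genes and 1 higher gene, beside 7.47% and 5.35% of all genes. The higher one, Ms4a6c, had 1160.24, 1282.58 and 1174.31 in CD74-/- libraries, against 1114.09, 985.52 and 972.6 in WT libraries. The other positive gene, Spic, had 271.96, 345.74 and 235.68, against 231.17, 157.68 and 259.23, with overlap. Csf1r, a receptor among these markers, had 128.15, 0 and 11.27, against 345.68, 102.14 and 152.32, and Adgre1 (F4/80) had 31.3, 0 and 1.02, against 64.21, 75.26 and 91.77. The library with Csf1r and Adgre1 at 0 had 62.86 normalized counts of Vcam1. Markers of stroma and endothelium, of which 12 of 15 were in the table, summed to 2572, 3259 and 3060 in CD74-/- libraries, against 2536, 3500 and 3710 in WT libraries, and of the 8 tested an unadjusted p under 0.05 was found for 1 lower gene (Kdr) and 1 higher gene (Pdgfrb). The highest genes of the list in every library were Emcn, Pecam1 and Tie1. Emcn had 1005.23 to 1705.38 in CD74-/- libraries and 628.21 to 1787.2 in WT libraries. Pecam1 had 621.21 to 800.29 and 698.85 to 766.91, and Tie1 had 417.73 to 625.07 and 589.52 to 820.28. Whether their RNA came from HSCs or from stroma and endothelium was not tested. Lepr, Pdgfra, Cdh5 and Bglap were at 17.12 or less in every library. Kdr, an endothelial receptor, had 9.78, 0 and 23.57 normalized counts in CD74-/- HSCs, against 95.25, 44.8 and 98.4 in WT HSCs. Pdgfrb, a receptor of mural and stromal cells, had 341.42, 342.7 and 466.24 in CD74-/- HSCs, against 254.71, 232.04 and 97.45 in WT HSCs. Of the 8 tested, Kdr and Pdgfrb did not overlap between the genotypes, beside 12.8% of all genes, and lay in opposite directions. Neither was called, and at an unadjusted p under 0.05, 4.6% of all genes were lower and 3.14% higher. The part of these cells in the Vcam1 values was not tested.

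**Figure D2:**
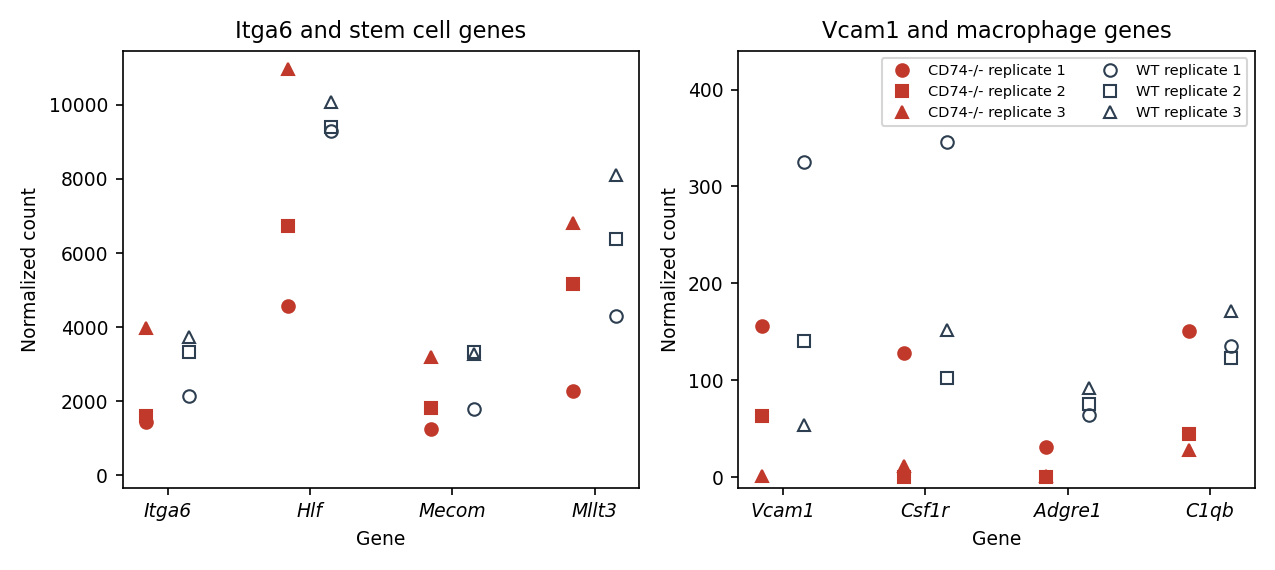
Normalized counts by library (linear axes) of Itga6 beside 3 HSC genes (left) and of Vcam1 beside 3 macrophage genes (right), with CD74-/- libraries in filled symbols left of WT libraries in open symbols. Among the CD74-/- libraries, Itga6, Hlf, Mecom and Mllt3 are lowest in replicate 1 and highest in replicate 3, while Vcam1 and C1qb run in the opposite order and Csf1r and Adgre1 are lowest in replicate 2.

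**Figure D3:**
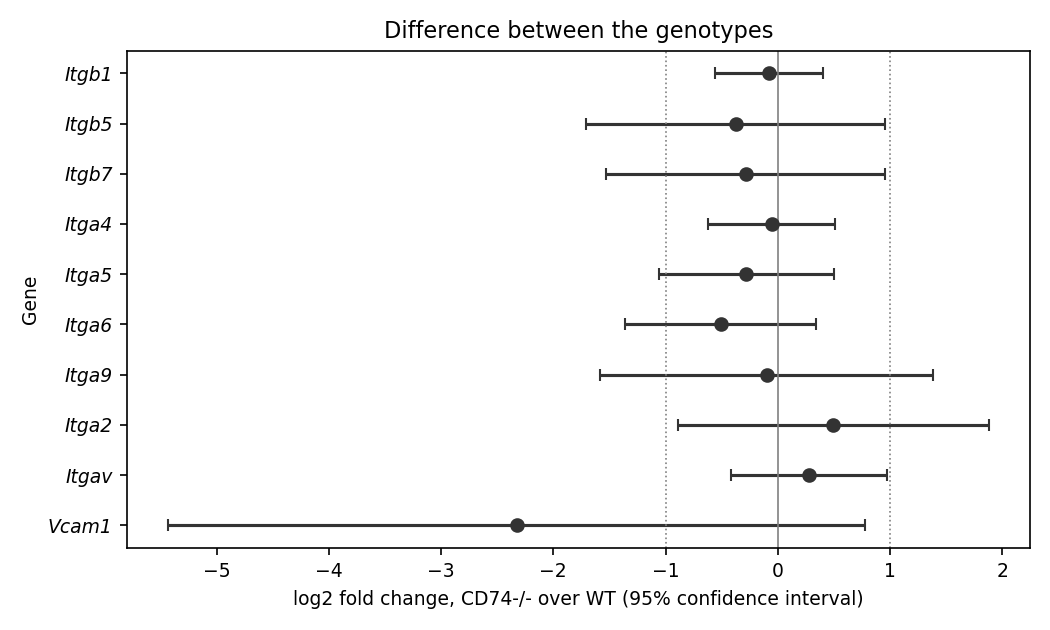
Log2 fold change (CD74-/- over WT) of each gene from limma, with its 95% confidence interval as a bar, a solid line at 0 and dotted lines at a log2 fold change of 1 in either direction. Every interval includes 0, and those of Itgb1, Itga4 and Itgav lie within the dotted lines.

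The intervals set what these libraries could show. For Itgb1, Itga4 and Itgav a log2 change of 1 in either direction lay outside the interval. For Itga5, Itgb5, Itgb7 and Itga6 a log2 decrease of 1 lay inside it, as for Vcam1, for Itga2 a log2 increase of 1, and for Itga9 both. The data do not exclude changes of that size and direction in these genes, and values that miss the threshold do not show that the genotypes are alike. Exact permutation tests on the 9 integrin chains gave p between 0.3 (Itga5) and 1.0 (Itga9).

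No library was high or low for all chains. CD74-/- replicate 3 had the highest value of 5 genes (Itgb1, Itga2, Itga4, Itga6 and Itgav) and the lowest of Vcam1, while CD74-/- replicate 2 had the lowest value of 4 (Itgb1, Itgb5, Itga4 and Itga5). WT replicate 2 was highest for 3 (Itgb5, Itga5 and Itga9) and WT replicate 1 for 2 (Itgb7 and Vcam1). The low values were thus spread over 5 libraries and the high values over 3.

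Levels of different chains were compared per kb of exon, over the mean of all 6 libraries. The length was that of all annotated exons of a gene joined, 13.978 kb for Itga4 and 4.081 kb for Itgb1. It can exceed the transcript in use, so the order depends in part on the annotation. Itgb1 was the highest at 629 normalized counts per kb (range 511 to 713), followed by Itga6 at 299 (158 to 440), Itga4 at 139 (109 to 177), Itgav at 76.8 (53.7 to 112) and Itgb7 at 75.5 (38.3 to 134). Itga5 had 52.7 (43.8 to 71.4), Itgb5 41.1 (16 to 64.3), Vcam1 13.9 (0.115 to 36.7), Itga2 11.5 (6.58 to 22.6) and Itga9 8.22 (3.44 to 13.0). Among neighbours in this order the ranges were separate for Itgb1 and Itga6 only. Itga6 was above Itga4, Itga4 above Itgav and Itga5 above Itgb5 in 6 of 6 libraries each. Itgav and Itgb7, Itgb7 and Itga5, and Vcam1 and Itga2 changed places between libraries, with the first of each pair higher in 4, 3 and 3 of 6, as did Itgb5 and Vcam1 and Itga2 and Itga9, with the first higher in 5 of 6 each.

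By RNA, beta1 was the main beta chain of the 3 in every library. Of the summed normalized counts per kb of Itgb1, Itgb5 and Itgb7, Itgb1 took 86.9%, 89.7% and 82% in CD74-/- HSCs, against 82.1%, 81.5% and 86.4% in WT HSCs. Itgb7 took 6.6%, 7.51% and 12.8% in CD74-/- HSCs, against 15.4%, 10.2% and 5.65% in WT HSCs. Itgb5 took 6.5%, 2.8% and 5.17% in CD74-/- HSCs, against 2.43%, 8.25% and 7.94% in WT HSCs. All 3 shares overlapped between the genotypes.

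The ratios of partner chains within a library, which do not depend on the size factor, also overlapped between the genotypes for all 9 pairs examined. The differences of the mean log2 ratio (CD74-/- minus WT) ranged from -0.43 for Itga6 to Itgb1 to 0.65 for Itgav to Itgb5. The exact permutation tests gave p between 0.4 and 1.0, and 0.9 or 1.0 after Benjamini-Hochberg adjustment over the 9 ratios. The ratio of Itga4 to Itgb1 had the narrowest range over the 6 libraries, with a mean log2 value of -0.40 ± 0.152 in CD74-/- HSCs and of -0.43 ± 0.121 in WT HSCs (SD, n = 3 each). That of Itgav to Itgb5 was the loosest among CD74-/- libraries, at 1.97, 3.93 and 2.91, against 2.93, 1.64 and 2.28 in WT libraries. The log2 ratio of Itga6 to Itgb1 was -0.82, -0.37 and 0.45 in CD74-/- HSCs, against -0.44, 0.36 and 0.64 in WT HSCs, with 1 CD74-/- library among the 2 higher WT libraries and the other CD74-/- libraries on either side of the lowest WT library.

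**Figure D4:**
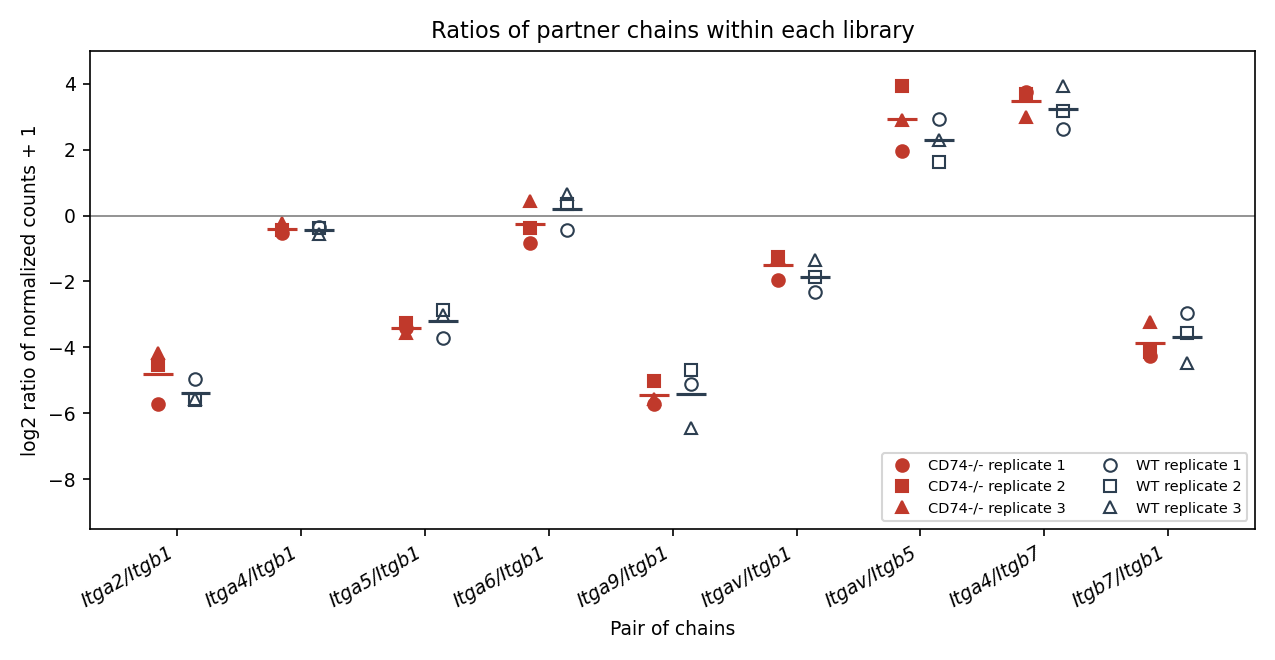
Log2 ratio of the normalized counts + 1 of 2 partner chains within each library, for 9 pairs, with CD74-/- libraries in filled symbols left of WT libraries in open symbols and a bar at each mean. Itga4 to Itgb1 spans the narrowest range over the 6 libraries, and the genotypes overlap for every pair.

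The wider integrin system was looked at through lists of genes. Of 18 other integrin subunits, 15 were in the table and 11 were tested. None was called. An unadjusted p under 0.05 was found for 4 lower genes and 1 higher gene, beside 4.6% lower and 3.14% higher of all genes, and the median log2 fold change was -1.44 beside -0.03 over all genes. The niche genes and this list were chosen with earlier results of these data known, and a difference in overlap between them was not tested. Of the 11 genes, 6 had no overlap between the genotypes, 5 of them lower in CD74-/- HSCs, beside 12.8% of all genes. They included the beta3 chain Itgb3, with 79.24, 8.11 and 25.62 normalized counts in CD74-/- HSCs, against 398.12, 230.25 and 148.54 in WT HSCs (log2 fold change -3.16, limma, Benjamini-Hochberg adjusted p = 0.396), and the leukocyte chain Itgb2 (CD18), with 405.01, 228.13 and 218.26, against 1243.59, 507.99 and 637.68 (log2 fold change -1.44, limma, Benjamini-Hochberg adjusted p = 0.504). The ratio of Itgb2 to Itgb1 was 0.16, 0.109 and 0.075 in CD74-/- HSCs, against 0.428, 0.196 and 0.267 in WT HSCs. Itgb2l and Itgam (the CD11b chain), genes of neutrophils and other myeloid cells, were among the lower ones, in libraries in which the neutrophil marker sum was lower as well. Itgb2 and the neutrophil marker sum were both highest in replicate 1 of each genotype, while CD74-/- replicates 2 and 3 ranked in opposite ways. The part of those cells in the values of Itgb2, Itgb2l and Itgam, and in the ratio of Itgb2 to Itgb1, was not tested. Itgae, the CD103 chain that pairs with beta7, had 5.87, 55.76 and 58.41 normalized counts in CD74-/- HSCs, against 0, 1.79 and 0 in WT HSCs (limma, Benjamini-Hochberg adjusted p = 0.563), while Itgb7 overlapped between the genotypes.

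Of 24 ligands of the niche integrins, 15 were tested and none was called. At an unadjusted p under 0.05, 4 were lower, beside 4.6% of all genes, and 3 of the 15 did not overlap, all lower, beside 7.47% of all genes. The median log2 fold change was -0.74. Vegfa, a growth factor bound by some integrins, had 63.59, 65.9 and 136.29 normalized counts in CD74-/- HSCs, against 240.8, 226.67 and 205.31 in WT HSCs (log2 fold change -1.42, limma, Benjamini-Hochberg adjusted p = 0.528), with no overlap. Fn1, fibronectin, the shared ligand of alpha4-beta1 and alpha5-beta1, had 152.61, 0 and 53.28 normalized counts in CD74-/- HSCs, against 674.23, 239.21 and 386.01 in WT HSCs (limma, Benjamini-Hochberg adjusted p = 0.563). Its highest CD74-/- library was below the lowest WT library, although 1 CD74-/- library had no read. Vwf, the von Willebrand factor, had 119.35, 178.45 and 437.55, against 377.79, 436.31 and 615.92 (log2 fold change -1.14, limma, Benjamini-Hochberg adjusted p = 0.615), with overlap. Jam2, a binding partner of alpha4-beta1, had 73.37, 144.99 and 102.47, against 118.79, 381.66 and 320.73 (log2 fold change -1.24, limma, Benjamini-Hochberg adjusted p = 0.63), with overlap between the genotypes. Spp1 (osteopontin), a niche ligand of alpha4-beta1 and alpha9-beta1, had 276.85, 104.43 and 85.05, against 212.97, 200.69 and 273.43, and the CD74-/- libraries enclosed the WT range.

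Of 29 genes for integrin activation by talin, kindlin and Rap1, 23 were tested and none was called, with a median log2 fold change of -0.14. Tln1 (talin) had 1829.39, 2065.31 and 1758.39 normalized counts in CD74-/- HSCs, against 2493.6, 1921.76 and 2001.96 in WT HSCs, and Fermt3, the kindlin of blood cells, had 1702.21, 1233.91 and 1470.45, against 1719.83, 1713.01 and 1499.58. Both overlapped between the genotypes. Rap1gap2, which switches Rap1 off, was the single gene with an unadjusted p under 0.05, where 4.6% of all genes were lower by that measure. It had 12.72, 10.14 and 8.2, against 157.32, 36.73 and 27.44 (log2 fold change -2.31, limma, Benjamini-Hochberg adjusted p = 0.594). Without overlap between the genotypes were 2 lower and 1 higher of the 23, beside 7.47% and 5.35% of all genes.

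Of 33 focal adhesion adaptors and kinases, 28 were tested and none was called. At an unadjusted p under 0.05, 3 were lower, beside 4.6% of all genes, and the median log2 fold change was -0.25. Without overlap between the genotypes were 5 lower and 1 higher of the 28, beside 7.47% and 5.35% of all genes. Parvg, the parvin of blood cells, had 867.74, 867.9 and 702.94 normalized counts in CD74-/- HSCs, against 1582.84, 1090.34 and 1250.75 in WT HSCs (log2 fold change -0.68, limma, Benjamini-Hochberg adjusted p = 0.583). Nedd9, a docking protein of the Cas family, had 223.05, 104.43 and 289.99, against 368.15, 372.7 and 456.02 (log2 fold change -1.07, limma, Benjamini-Hochberg adjusted p = 0.606). Tgfb1i1 (Hic-5), a paxillin relative, had no read in 3 CD74-/- libraries, against 51.37, 36.73 and 17.03 normalized counts in WT libraries. The WT mean was 34.8-fold the CD74-/- mean when the CD74-/- libraries together are set at 3 reads. This value covers counting error only and leaves out the spread between libraries. The log2 fold change was -5.04 (interval -8.16 to -1.92, limma, Benjamini-Hochberg adjusted p = 0.504). These 3 are among the 5 lower genes without overlap, and none of them passed the test over all genes.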

How the data were processed

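RNA of CD34-/LSK cells was measured in 3 CD74-/- and 3 WT libraries of 1000 cells. The authors trimmed single-end HiSeq2500 reads with cutadapt, dropped reads under 30 bp, aligned them to GRCm38 by STAR (2.4.2a in the submitters' processing notes), used htseq-count with Ensembl release 92 for gene counts and scaled these by DESeq2 size factors. The deposited signal values are such normalized counts, rounded to 2 decimals. Reads were recovered from them, since each of the 101059 values above 0 (100.0%) came out whole when divided by the worth of 1 read, within 0.006 normalized counts. Reads have no molecular identifiers, and the floor of 3 reads covers counting error only.

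A count test had been the first choice for raw counts. With normalized counts deposited, limma (3.58.1, R 4.3.3) with a trend was fitted to log2(normalized count + 1) of 14892 genes (mean of 10 or more), with all 6 libraries and genotype alone, with Benjamini-Hochberg adjustment and a threshold of 0.05. Two-sided exact permutation tests were added for single genes and ratios. On the recovered reads edgeR (4.0.16) called 12 genes, DESeq2 (1.42.0) 148 of 19589 and limma-voom 6. Other alternatives were TMM and per-million scaling, a block for the replicate number, leaving out single libraries, pseudocounts of 0.5 and 5, and a minimum mean of 0 (no filter) or 50. The limma fit was tested on simulated data. The rest used Python 3.11.15 with scipy 1.17.1, matplotlib 3.10.9, pandas 2.3.3 and numpy 2.4.6.

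The members and the gene lists were chosen with earlier results of these data known. By the naming rule all 10 members and Cd74 were named, with up to 4 genes of each list at the lowest unadjusted p under 0.05, and marker genes beside a member's result. Itgae, Tln1, Fermt3 and Spp1 are exceptions to this rule, picked with their values in view, as were the ratio of Itgb2 to Itgb1 and the promoter motifs. Exon lengths, coordinates, overlaps and shared 50-base words came from GENCODE vM21 (GRCm38), and promoters from RefSeq. Matches to ETS, NF-kB, E2F and TATA motifs were searched too and found for 0 of the 8 genes with a promoter.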

Additional observations from a re-analysis of the deposited data

How the results depend on the processing

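None of the 10 niche genes was called under any of 16 alternatives, and the adjusted p of these genes was never below 0.115. Leaving out 1 library turned the sign of 5 log2 fold changes and 4 log2 ratios: over the libraries left out, Itgb1 ranged from -0.19 to 0.05, Itgb5 from -0.86 to 0.12, Itgb7 from -0.76 to 0.14, Itga4 from -0.25 to 0.09 and Itga9 from -0.68 to 0.26, and the ratio of Itga4 to Itgb1 ranged from -0.06 to 0.08, Itga9 to Itgb1 from -0.54 to 0.34, Itga4 to Itgb7 from -0.08 to 0.57 and Itgb7 to Itgb1 from -0.61 to 0.14. Itga2 (0.06 to 0.94), Itga5 (-0.46 to -0.12), Itga6 (-0.97 to -0.24), Itgav (0.05 to 0.50) and Vcam1 (-3.59 to -0.45) kept their sign. Vcam1 was -1.24 with DESeq2 and -1.21 with edgeR.

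The count over all genes, 6 higher and 7 lower, depended more on the test. It was 49 higher and 99 lower with DESeq2 and 3 higher and 3 lower with limma-voom. Leaving out 1 library gave 5 to 23 higher genes (23 without CD74-/- replicate 3) and 1 to 34 lower genes (34 without CD74-/- replicate 1, 12 without CD74-/- replicate 3, and 1, 2 and 4 without WT replicate 1, 2 and 3). The cause was not tested.

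The labels number the libraries 1 to 3 in each genotype. The deviations of same-numbered libraries correlated at 0.116, 0.072 and 0.019, so the libraries were taken to share only a number, although each CD74-/- library correlated best with the WT library of its own number. A block for the replicate number gave 6 higher and 21 lower genes, and none of the 10 niche genes was called. Vcam1 fell from replicate 1 to replicate 3 in both genotypes. With the block its unadjusted limma p went from 0.126 to 0.0207 (Benjamini-Hochberg adjusted p = 0.519). That of Itga6 went from 0.209 to 0.0882 (Benjamini-Hochberg adjusted p = 0.646).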
